A study of Mus musculus with 50 samples.

Results

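The probe identifiers RTS0076368, RTS0076369, RTS0076370, RTS0076371 and RTS0076763 were followed across mouse lung sections in which CD68+ macrophage areas and CD45- non-immune areas had been captured separately. They are 5 of the 20175 identifiers of a whole transcriptome probe set. They were chosen on measured values, namely a high level and enrichment in CD68+ segments of air-exposed lung together with lower CD68+ levels after ozone (RTS0076368) or in injured regions (RTS0076369, RTS0076370 and RTS0076763), so those contrasts are given here as descriptions. RTS0076371 completes the run of consecutive numbers. The files pair no identifier with a gene, so the transcripts are called by their identifiers and no role or sequence is given for them.

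Each of 4 sections came from 1 animal condition. A young wild type mouse (12 weeks) had breathed filtered air. A young wild type mouse (12 weeks), a young SP-CI73T mutant mouse (12 weeks) and an old SP-CI73T mutant mouse (80 weeks) had whole-body exposure to 0.8 ppm ozone for 3 hours, and their lungs were taken 72 hours later. SP-C is surfactant protein C, a product of alveolar type 2 cells, and this mutation is known for misdirected trafficking of the protein in those cells. Each section carries 1 study identifier and was taken as 1 animal, so its regions share that animal. The air section had 4 healthy regions, the wild type ozone section 4 peri-injured and 4 injured regions, and each mutant section 3 of each. The plate changes with the genotype (wild type sections on 1, mutant sections on the other), so an effect of either cannot be told apart from the other's.

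Alveolar macrophages live on the airspace surface, where they take up surfactant, inhaled particles and dying cells, and they carry CD68, a protein of lysosomal membranes. Ozone damages the epithelium of the airways and distal airspaces, and in the days that follow blood monocytes enter the lung and become macrophages beside the resident ones. A segment in GeoMx profiling is an area chosen by staining, here CD45+CD68+ or DNA+CD45-, so it can hold parts of several cells. In such captured areas, fewer cells of a type and less RNA per cell cannot be told apart. With no gene names, the CD68+ label could not be checked against other macrophage markers.

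CD68+ segments held 20043 to 101968 counts and CD45- segments 32705 to 300708 counts, with 15 of 24 CD68+ and 3 of 24 CD45- segments under 50000. All 5 identifiers had counts in every tissue segment and none in either no template control. The lowest count of all was 8, for RTS0076371 in the CD45- segment of air region 8, which corresponds to 180 CPM with an exact Poisson 95% interval of 77.8 to 355 CPM that covers counting error only. CPM is counts scaled to 1000000 per segment, with TMM factors over all 48 segments. It was not adjusted for length, so levels are compared within an identifier. Each ± below is an SD between regions of 1 section, with n the number of regions.

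RTS0076370 was the most abundant identifier of all 20175 in air macrophage segments. It stood at 46544, 27380, 32546 and 31304 CPM in the CD68+ segments of air regions 8, 10, 11 and 12, or 2.93% to 4.58% of all counts of a segment. In the CD45- segments of the same regions it had 3920, 8598, 6950 and 4138 CPM. All 4 CD68+ values lay above all 4 CD45- values.

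The other 4 identifiers had the same arrangement in air. The mean CD68+ and CD45- levels were 6163 ± 1418 and 1194 ± 469 CPM (n = 4) for RTS0076369, and 4538 ± 1288 and 756 ± 418 CPM (n = 4) for RTS0076368. RTS0076763 had 1478 ± 589 and 314 ± 98.5 CPM (n = 4), and RTS0076371 had 1247 ± 401 and 240 ± 71.4 CPM (n = 4). By mean share of counts in air CD68+ segments, RTS0076370, RTS0076369, RTS0076368, RTS0076763 and RTS0076371 ranked 1, 4, 6, 13 and 17 among the 20175. Together they took 5.36 ± 1.06% of the counts there and 0.933 ± 0.317% in CD45- segments (n = 4).

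Across the 7 combinations of section and region type, the CD68+ share of the 5 together was highest in air and lowest in injured regions of the young mutant section. In the wild type ozone section it was 3.70 ± 0.587% in peri-injured and 2.39 ± 1.06% in injured regions (n = 4). It was 2.78 ± 0.798% and 1.01 ± 0.316% in the young mutant section, and 2.55 ± 0.168% and 1.72 ± 0.434% in the old mutant section (n = 3). The share in CD45- segments ran over a narrower span, with means from 0.896% to 1.88%, and was highest where the wild type lung was injured.

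RTS0076370 carried most of that span. In CD68+ segments of the wild type ozone section it had 34573, 24628, 21901 and 25478 CPM in peri-injured regions 5, 6, 7 and 15. Injured regions 2, 3, 4 and 9 of this section had 18947, 25071, 20658 and 7602 CPM. The 2 region types overlapped, and region 9 was the lowest for all 5 identifiers.

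In the young mutant section RTS0076370 had 5733, 11957 and 11202 CPM in the CD68+ segments of peri-injured regions 4, 5 and 6. It had 3012, 888 and 2307 CPM in injured regions 1, 2 and 3, the 888 CPM resting on 26 counts. All injured regions lay below all peri-injured regions here, on a contrast that RTS0076370 had been picked on. In the old mutant section peri-injured regions 7, 9 and 11 had 10281, 10049 and 10427 CPM, and injured regions 8, 10 and 12 had 9545, 4117 and 5474 CPM, again without overlap. No share of all identifiers that separate in this way is given for either section.

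The order of mean CD68+ levels of RTS0076370 was therefore air (34443 CPM), wild type peri-injured (26645), wild type injured (18070), old mutant peri-injured (10252), young mutant peri-injured (9631), old mutant injured (6379) and young mutant injured (2069). In this order only the lowest group was separate from its neighbour, and every other pair of neighbours overlapped. For the other 4 identifiers all neighbours in the order overlapped, in both segment types. RTS0076369 was highest in old mutant peri-injured regions (7426 ± 374 CPM, n = 3) and lowest in wild type injured regions (3557 ± 1456 CPM, n = 4). RTS0076371 had the narrowest spread of means, from 767 to 1249 CPM.

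**Figure D1:**
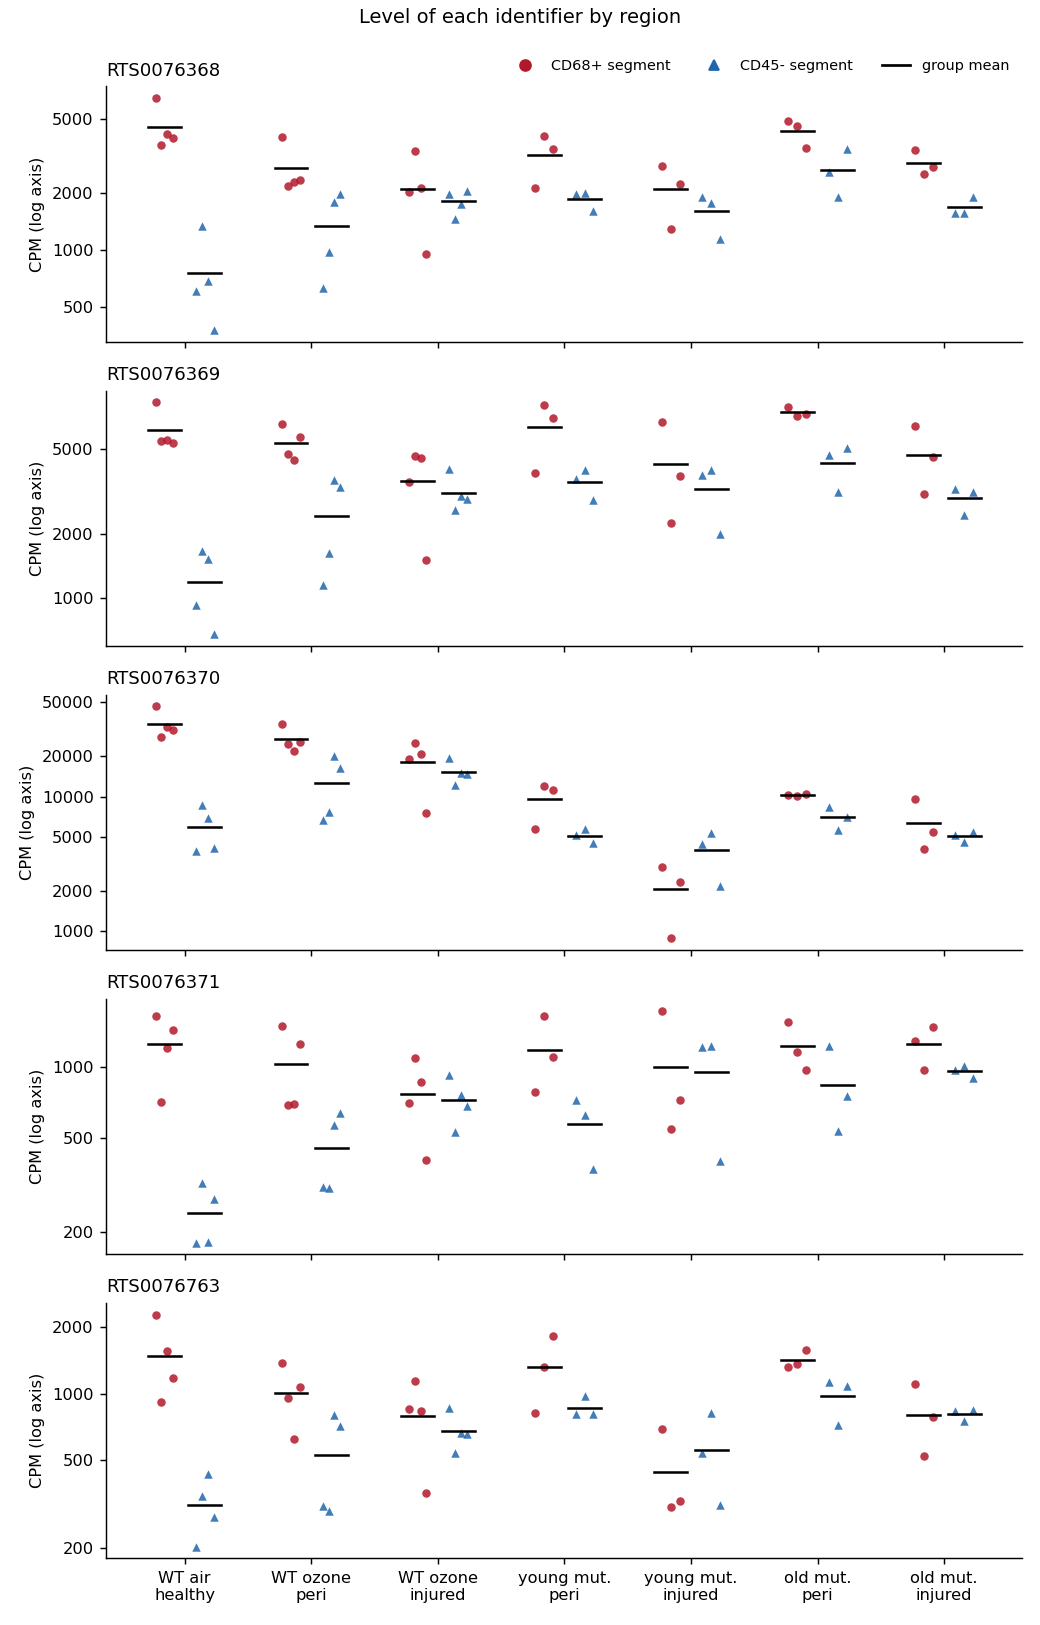
Level of each identifier in CPM (log axis) in every region, by section and region type (WT, wild type; mut., mutant; peri, peri-injured). Circles are CD68+ and triangles CD45- segments, and bars are group means; RTS0076370 spans 888 to 46544 CPM in CD68+ segments, and RTS0076371 spans 404 to 1734 CPM.

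The first comparison asked whether the macrophage enrichment seen in air was also present in the ozone-exposed lungs. The choice of the identifiers had used CD68+ levels of these lungs (for being lower after ozone or in injured regions) but not their CD45- levels, so this test is not independent of the choice. All 5 were higher in CD68+ than in CD45- segments of the 3 ozone sections, where 1.43% of the 17651 identifiers tested were called higher (252 higher and 121 lower, or 207 and 188 with total counts). The log2 fold change was 0.98 for RTS0076369 (SE 0.145, edgeR adjusted p = 4.17e-05) and 0.94 for RTS0076368 (SE 0.149, edgeR adjusted p = 0.000112). RTS0076370 had 0.78 (SE 0.138, edgeR adjusted p = 0.000483), RTS0076371 had 0.75 (SE 0.156, edgeR adjusted p = 0.00372) and RTS0076763 had 0.69 (SE 0.156, edgeR adjusted p = 0.00898). The fit used counts summed per section and segment (6 sums) with the section as a block, and the median over all tested identifiers was 0.00.

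These calls were not kept without the wild type ozone section or without shallow segments. Without that section the log2 fold changes were 0.67 to 1.07, close to those above, in a fit of fewer sums. None of the 5 passed there (edgeR adjusted p from 0.0766 for RTS0076369 to 0.436 for RTS0076763, with 24 identifiers called higher in all). Without the 12 CD68+ segments under 50000 counts the log2 fold changes were 0.32 to 0.88 and none passed (edgeR adjusted p from 0.0998 to 0.918). The CD45- segments of the same regions stayed in that fit, so its sums no longer covered the same regions in both segment types. It also left out 5 of the 6 young mutant CD68+ segments. RTS0076371 and RTS0076763 also did not pass without the young mutant section (0.65 and 0.63, edgeR adjusted p = 0.124 and 0.149) or with DESeq2.

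The ratio of CD68+ to CD45- level within a region is given as a description, since the choice favoured high ratios in air and lower CD68+ levels after ozone or injury. Over the 356 identifiers with a mean of at least 10 counts in CD68+ segments, the median log2 ratio was 0.32 in air and -0.11 in ozone regions, and 299 of them had a larger mean ratio in air. For RTS0076368 the log2 ratio was 2.65 ± 0.912 in air (n = 4), a 6.29-fold mean difference, against 0.60 ± 1.08 in the wild type ozone section (n = 8), 0.54 ± 0.606 in the young mutant (n = 6) and 0.75 ± 0.443 in the old mutant section (n = 6). The air ratios of the other 4 were 2.41 ± 0.731 for RTS0076369, 2.59 ± 0.823 for RTS0076370, 2.24 ± 0.831 for RTS0076371 and 2.11 ± 0.854 for RTS0076763 (n = 4). In the 20 ozone regions together their means were 0.65, 0.36, 0.53 and 0.32, with SDs of 0.765 to 1.03. The ratio was above 0 in 18 of 20 ozone regions for RTS0076368, 17 for RTS0076369, 15 for RTS0076370, 16 for RTS0076371 and 14 for RTS0076763.

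Within the wild type ozone section the ratio ran in one sequence for all 5. RTS0076370 had log2 ratios of 1.21 ± 1.00 in peri-injured and 0.13 ± 0.833 in injured regions (n = 4), and the other 4 had 0.98 to 1.27 and 0.02 to 0.12. Injured region 9 had ratios below 0 for all 5 (-1.09 to -0.72). For RTS0076370, injured regions of the young mutant section had the lowest mean ratio of any group, -1.02 ± 1.38 (n = 3), with CD45- above CD68+ in 2 of 3 regions. Region 2 there had -2.56, from 26 counts in the CD68+ segment. RTS0076763 was also lowest in that group (-0.31). RTS0076368, RTS0076369 and RTS0076371 were lowest in wild type injured regions (0.10, 0.08 and 0.02). The mean ratio was lower in injured than in peri-injured regions of all 3 ozone sections for 4 of the 5, the exception being RTS0076368 in the old mutant section (0.77 against 0.72), and for 18.5% of the 356 abundant identifiers. RTS0076369, RTS0076370 and RTS0076763 had been picked on the CD68+ level in injured regions, so nothing is read from their part in this count. With upper quartile factors, or with counts per area of the segment, this held for 1 of the 5.

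**Figure D2:**
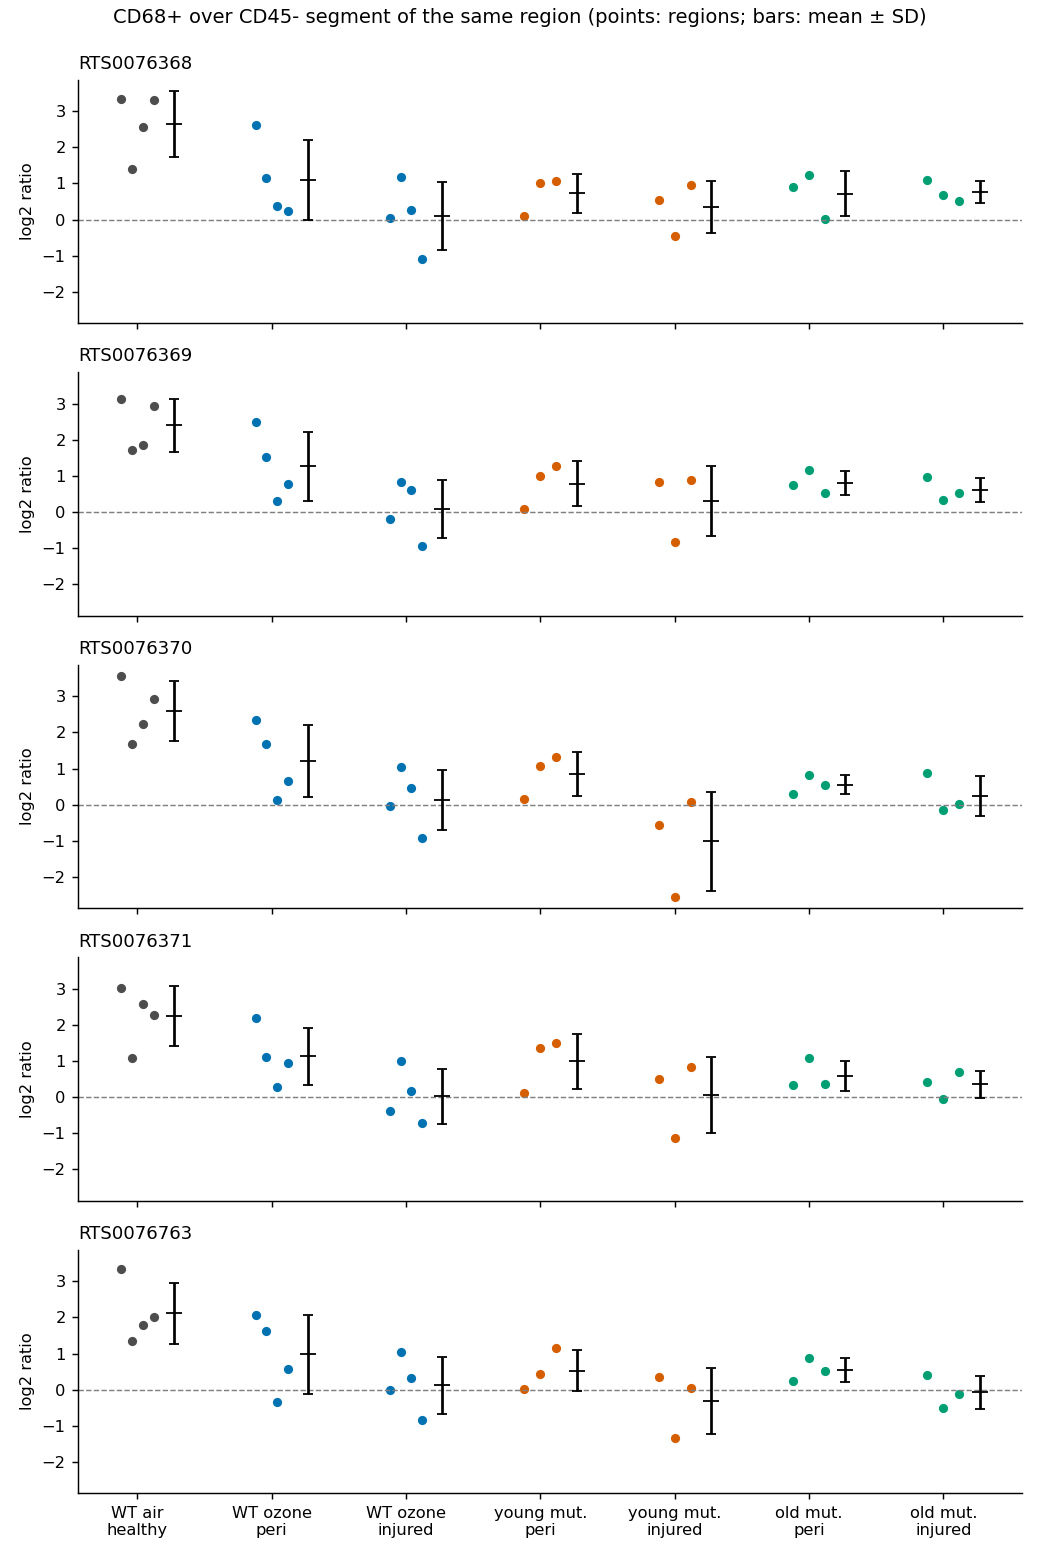
Log2 ratio of the CD68+ to the CD45- level of the same region for each identifier, by section and region type (abbreviations as in the plot of levels). Points are regions, bars give the mean and SD, and the dashed line marks equal levels; all air regions lie above 1, while ozone regions lie from -2.56 to 2.62.

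The next comparison set injured against peri-injured regions. In CD68+ segments, where RTS0076369, RTS0076370 and RTS0076763 had been picked on it, the log2 fold changes over the 3 sections were -1.16 for RTS0076370, -0.95 for RTS0076763, -0.66 for RTS0076369, -0.60 for RTS0076368 and -0.29 for RTS0076371, and 0.252% of the 3176 identifiers were called lower. The sections differed most for RTS0076370, at -2.30 in the young mutant, -0.77 in the old mutant and -0.67 in the wild type lung. RTS0076763 had -1.55, -0.86 and -0.39 in the same order. RTS0076369 had nearly equal differences of -0.65, -0.72 and -0.69. RTS0076371 had -0.34, 0.03 and -0.42. The identifier RTS0076055 took 7.21% to 15.9% of all counts in the injured CD68+ segments of the young mutant and at most 2.74% in the other CD68+ segments, and without it RTS0076370 had -1.17 over the 3 sections.

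Counts of RTS0076370 per 1000 units of segment area, which use no scaling between identifiers, also had a lower mean in injured than in peri-injured regions of each ozone section, with overlapping regions in the wild type section. In CD68+ segments they were 197 ± 52.2 in air, 145 ± 35.0 in peri-injured and 111 ± 50.1 in injured wild type regions (n = 4). They were 105 ± 24.6 and 21.7 ± 11.0 in the young mutant and 87.5 ± 7.03 and 59.6 ± 19.5 in the old mutant section (n = 3). The total counts of all identifiers per 1000 area units in CD68+ segments were higher in the mutant sections (group means 8238 to 10013) than in the wild type sections (5201 to 6641). Area is printed without a unit in the deposited worksheets.

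The CD45- segments of the ozone sections were not used to choose the identifiers. None of the 5 passed there, where 0.347% of 16703 identifiers were called in either direction (34 higher and 24 lower, or 15 and 5 with upper quartile factors). RTS0076371 had the largest log2 fold change, 0.56 (SE 0.139, edgeR adjusted p = 0.0664), and was higher on average in injured regions of all 3 sections (by 0.69 in the wild type, 0.59 in the young mutant and 0.27 in the old mutant). Its injured and peri-injured regions overlapped in each of these sections. RTS0076368 had -0.16 (SE 0.138, edgeR adjusted p = 0.940), RTS0076370 had -0.15 (SE 0.103, edgeR adjusted p = 0.894), RTS0076763 had -0.15 (SE 0.146, edgeR adjusted p = 0.953) and RTS0076369 had -0.08 (SE 0.124, edgeR adjusted p = 0.981). DESeq2 called none of the 5 and 1 identifier in all, and 1037 identifiers had an unadjusted p under 0.05 with edgeR.

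Behind these 4 values near 0 stood section means that went opposite ways. In the wild type section RTS0076368, RTS0076369, RTS0076370 and RTS0076763 had mean differences of 0.56, 0.50, 0.41 and 0.46 in CD45- segments. In the young mutant section they had -0.23, -0.15, -0.44 and -0.70, and in the old mutant section -0.61, -0.52, -0.46 and -0.24. Injured and peri-injured regions overlapped for all 4 in the wild type and young mutant sections. In the old mutant section they overlapped for RTS0076369 and RTS0076763 but not for RTS0076368 and RTS0076370. The SDs between wild type peri-injured regions, 0.73 to 0.79, were larger than the differences of that section. When the wild type lung was left out RTS0076370 had -0.39 (edgeR adjusted p = 0.00035), RTS0076368 -0.47 (edgeR adjusted p = 0.00983) and RTS0076369 -0.33 (edgeR adjusted p = 0.0461). That fit rested on the young and old mutant sections alone, and 105 identifiers were called higher and 59 lower of 15103 tested. The difference between the sections was not itself tested. Without the old mutant section RTS0076371 had 0.78 (edgeR adjusted p = 0.0383), where 41 identifiers were called higher and 53 lower of 17434.

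**Figure D3:**
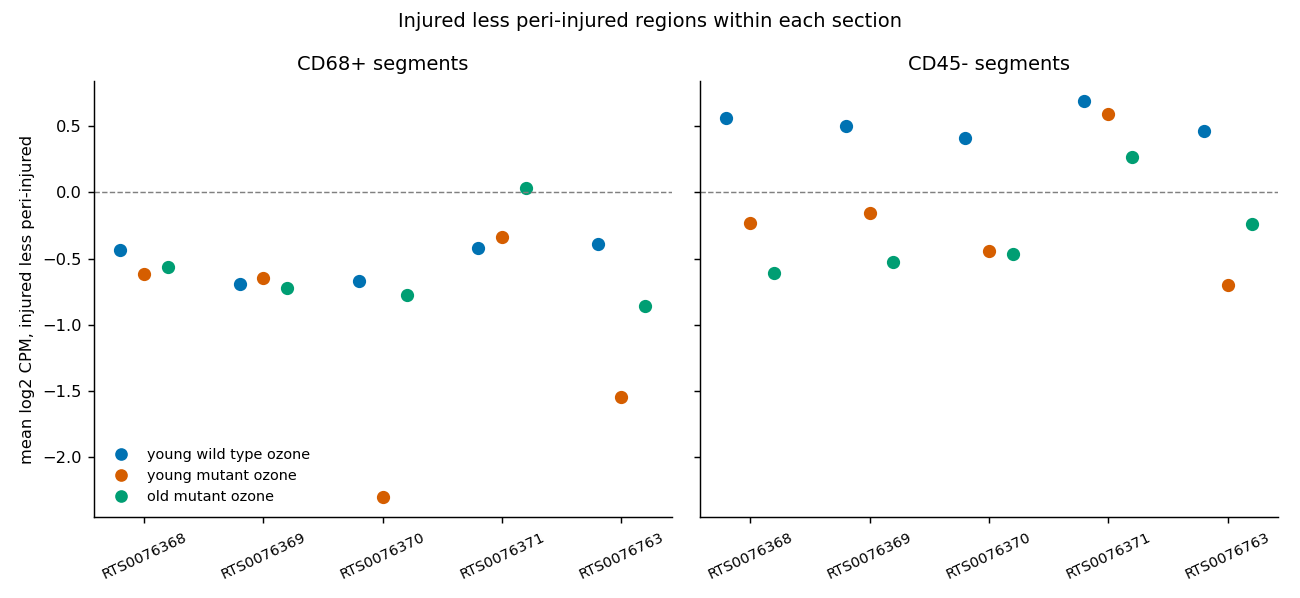
Difference of mean log2 CPM between injured and peri-injured regions of each ozone section, in CD68+ (left) and CD45- (right) segments, 1 point per section and identifier; the dashed line marks no difference. In CD68+ segments all points but RTS0076371 in the old mutant section lie below 0, down to -2.30. In CD45- segments all 5 wild type points lie above 0, each from overlapping regions.

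Ozone was then compared with air in young wild type mice, 1 section against 1 section, which allows no test across animals. The rule for counting an identifier was a difference of at least 1 in mean log2 CPM, scaled within the segments compared, with no overlap of regions. In CD68+ segments, where the choice had used this contrast, 5.66% of 477 identifiers were counted. RTS0076368 was at -1.31 and RTS0076370 at -1.05, both counted, and RTS0076763 was at -1.05, RTS0076369 at -0.90 and RTS0076371 at -0.83, against a median of 0.06 over all 477. Without air region 10, RTS0076371 and RTS0076763 were counted as well (4 of the 5), and without air region 8, air region 11 or ozone region 9 only RTS0076368 was. With TMM factors of all 48 segments the median over the 477 shifted to 0.39, the 5 lay from -0.96 to -0.49, and none was counted.

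In CD45- segments the values are likewise a description, because the choice for CD68+ enrichment in air favours low CD45- levels in air. The log2 differences of ozone against air were 0.77 for RTS0076370, 0.76 for RTS0076371, 0.75 for RTS0076369, 0.66 for RTS0076368 and 0.43 for RTS0076763, against a median of 0.06 over 1819 identifiers. None of the 5 was counted, and 3.57% of the 1819 were. RTS0076370 had 6754, 7616, 20040 and 16134 CPM in the CD45- segments of peri-injured regions 5, 6, 7 and 15 after ozone. It had 19288, 12237, 15024 and 14566 CPM in injured regions 2, 3, 4 and 9. All 4 injured regions lay above the highest air region (8598 CPM), while peri-injured regions 5 and 6 lay within the air range. With TMM factors of all 48 segments the median shifted to 0.42 and the 5 lay from 0.85 to 1.23.

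The young mutant and young wild type sections after ozone differed in 1 of the 5. RTS0076370 was 2.74-fold lower in mutant CD45- segments (log2 difference -1.45), and no mutant region reached the lowest wild type region. There 1.84% of 2502 identifiers were counted, and RTS0076370 ranked 17 from the lowest. In CD68+ segments it was 3.88-fold lower (-1.96), but the regions overlapped, so it was not counted, where 4.34% of 392 identifiers were. The other 4 lay from 0.33 to 0.47 in CD45- and from 0.15 to 0.60 in CD68+ segments. The lowest of these, RTS0076763 in CD68+ segments (0.15), turned to -0.21 with TMM factors of all 48 segments. Counts of RTS0076370 per 1000 area units overlapped in peri-injured CD68+ segments (76.2 to 120 in the mutant and 117 to 192 in the wild type). They did not overlap in injured CD68+ segments or in CD45- segments of either region type, where the mutant was lower.

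RTS0076370 was also set against RTS0076369 in the same segment, as a ratio of counts that needs no scaling factor. This ratio depends on both identifiers. RTS0076369 was itself higher in the young mutant than in the wild type ozone section, by 0.58 in CD68+ and 0.47 in CD45- segments, with overlapping regions. The ratio of RTS0076370 to RTS0076369 was 5.59 ± 0.405 in CD68+ and 5.03 ± 0.821 in CD45- segments of the air section (n = 4). It was 5.03 ± 0.358 and 5.07 ± 0.428 in the wild type ozone section (n = 8). In both wild type sections it thus stayed near 5 in both segment types, with and without ozone and in injured and peri-injured regions.

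In the mutant sections the ratio was lower in every segment. It was 1.52 ± 0.0657 in CD68+ and 1.47 ± 0.0765 in CD45- segments of young mutant peri-injured regions (n = 3). In injured regions of this section it was 0.487 ± 0.116 in CD68+ segments (n = 3), from 26, 92 and 165 counts of RTS0076370 beside 66, 149 and 367 of RTS0076369. In CD45- segments of those regions it was 1.21 ± 0.131 (n = 3). The old mutant section had 1.38 ± 0.0659 and 1.34 ± 0.148 in CD68+ segments of peri-injured and injured regions, and 1.67 ± 0.222 and 1.73 ± 0.138 in CD45- segments (n = 3). The 24 wild type segments ran from 4.24 to 6.11 and the 24 mutant segments from 0.394 to 1.87, so the genotypes, and with them the plates, did not overlap. This ratio was singled out after its values were seen, and no share of other identifiers or pairs that separate in this way is given.

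The other ratios to RTS0076369 overlapped between wild type and mutant segments. With both segment types together, RTS0076369 over RTS0076368 was 1.53 ± 0.329 in the air (n = 8 segments) and 1.81 ± 0.277 in the wild type ozone section (n = 16 segments). It was 1.93 ± 0.222 in the young mutant and 1.68 ± 0.245 in the old mutant section (n = 12 segments). Both segments of a region entered these values, so each ± is an SD between segments of a section. RTS0076371 over RTS0076369 was 0.216 ± 0.0904, 0.211 ± 0.0379, 0.215 ± 0.0594 and 0.243 ± 0.0863 in the same order, and RTS0076763 over RTS0076369 was 0.258 ± 0.0734, 0.213 ± 0.03, 0.185 ± 0.0623 and 0.217 ± 0.0453. The last of these was not even within the young mutant section, where it was 0.109 ± 0.025 in injured and 0.212 ± 0.0487 in peri-injured CD68+ segments (n = 3), without overlap and from 38, 9 and 13 counts of RTS0076763 in injured regions 1, 2 and 3.

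**Figure D4:**
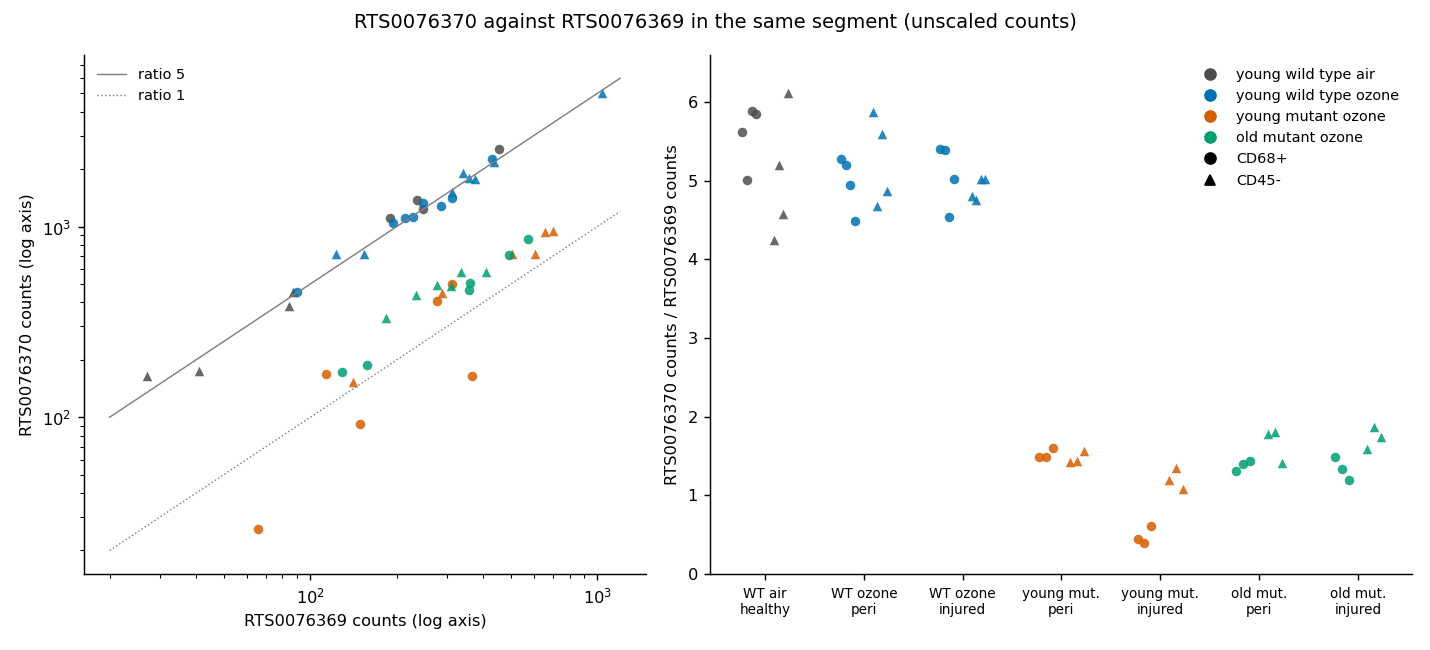
Left, unscaled counts of RTS0076370 against RTS0076369 in each of the 48 segments (log axes, lines at ratios of 5 and 1); right, their ratio by section and region type (abbreviations as in the plot of levels). Circles are CD68+ and triangles CD45- segments, coloured by section; wild type segments lie from 4.24 to 6.11 and mutant segments from 0.394 to 1.87, lowest in injured CD68+ segments of the young mutant.

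The old and young mutant sections, both on 1 plate, differed in none of the 5 by the same rule, which counted 1.05% of 287 identifiers in CD68+ and 0.0737% of 1356 in CD45- segments. RTS0076370 had the largest differences, 0.70 in CD68+ and 0.33 in CD45- segments, higher in the old mutant and with overlapping regions. Its mean CD68+ level in injured regions was 6379 ± 2825 CPM in the old and 2069 ± 1082 CPM in the young mutant section (n = 3), and these did not overlap. No share of all identifiers is given for injured regions alone, and the lowest young mutant value rested on 26 counts. The other 4 lay from 0.04 to 0.29 in CD68+ and from -0.02 to 0.28 in CD45- segments.

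The last question was how the identifiers varied together. Across the 24 CD68+ segments the 10 pairs had Pearson correlations of log2 CPM from 0.27 to 0.90, with a median of 0.75. RTS0076368 and RTS0076369 were the closest pair (0.90), and the 4 pairs with RTS0076370 had 0.27 to 0.70. After group means were subtracted, RTS0076369 and RTS0076370 became the closest pair (0.96 in CD68+ and 0.95 in CD45- segments), and the median over the 10 pairs was 0.85 and 0.81. The log2 count ratio of RTS0076370 to RTS0076369 had an SD of 0.154 within groups, against 1.10 over all 48 segments. Regions of a section share the animal, the plate and the scaling, so these correlations are descriptions.

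The 5 identifiers most like the mean of the members over the 24 CD68+ segments were RTS0064864 (r = 0.92), RTS0069914 (0.87), RTS0075938 (0.84), RTS0075548 (0.80) and RTS0076045 (0.78), among 351 others with a mean of at least 10 counts, whose median r was 0.03. RTS0064864 had a mean CD68+ level of 1513 CPM in air, of 964 CPM in wild type injured and of 632 CPM in young mutant injured regions. RTS0076045, the identifier most like RTS0076370 alone (r = 0.82), was lower in both mutant than in the wild type ozone section, with 358 CPM in young mutant and 1562 CPM in wild type injured CD68+ segments. In CD45- segments it had 447 CPM in the young mutant, 698 in the old mutant and 1210 CPM in the wild type ozone section. Both RTS0064864 and RTS0076045 were picked by correlation over the CD68+ segments, so their CD68+ levels follow in part from the choice. No share of other identifiers with such levels is given.

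Of the neighbours by number, RTS0076366, RTS0076372, RTS0076373 and RTS0076762 had means of 1.25 to 1.96 counts per CD68+ segment and correlations of -0.06 to 0.21 with the mean of the 5. RTS0076367, directly below the run, had 12.8 counts and 253 CPM, with r = 0.64, and RTS0076764 was not analysed here. Over the 80 pairs of abundant identifiers with consecutive numbers the median correlation was 0.42, against 0.22 over all 63190 pairs. RTS0076368 with RTS0076369 was the highest of the 80.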

How the data were processed

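Each deposited file holds probe counts of 1 segment, made by the authors with the GeoMx NGS Pipeline 2.3.4 and deduplicated by molecular identifiers, per the file headers. Libraries used the mouse whole transcriptome kit on paraffin sections, per the labels' protocols. Segment areas come from the deposited worksheets, where they are a score with no unit printed. Barcodes not listed were set to 0. The 20175 identifiers of 1 continuous number range were analysed, and 63 outside it stayed out of library sizes. No reference table names them, so no marker list was evaluated and no sequence is shown. The criteria for calling a region injured are not given in the sources used here. The labels of the air samples conflict (a treatment field names ozone), and titles were followed. The design text names no genotype for the old section, and its sample labels give mutant.

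Counts were summed per section and segment, or per section and region type, filtered with filterByExpr (minimum count 10), scaled by TMM and fitted in R 4.3.3 with edgeR 4.0.16 (section as a block, two-sided quasi-likelihood F-test of glmQLFit and glmQLFTest, Benjamini-Hochberg over all identifiers tested, threshold 0.05). All 5 identifiers passed every such filter of the main fits, and each SE was derived from the F statistic. Comparisons of 2 sections used log2 CPM (prior count 2) with TMM factors of the segments and identifiers kept there. CPM levels and ratios within regions used TMM factors of all 48 segments. The fits were also run on simulated counts without differences between sections and with larger changes than those fitted for the 5. That run does not show how the fits perform on these data. Both segments of a region come from 1 animal, so regions pair them. The section block pairs the sums of a section, and only the alternative with the region as a replicate block pairs single regions. Duplicate reads made up 79.8% to 95.3% of aligned reads.

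Members, lists and tests were chosen with earlier results of these data known. The named identifiers are the 5 members, the 5 most correlated others and the neighbours by number. Alternatives were upper quartile factors, total counts, DESeq2 1.42.0, no filter, a filter of 50 CPM, a prior count of 10, counts per area, leaving out RTS0076055, segments under 50000 counts, each section or each region, and regions as libraries.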

Additional observations from a re-analysis of the deposited data

Results flagged for a closer look

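Of 30 groups of 4 regions examined, 1 segment type and identifier each, 2 had a region far from the others, where chance alone gives about 1 in 20. RTS0076368 stood at 3994 CPM in the CD68+ segment of region 5 (wild type ozone, peri-injured), against 2204 to 2369 CPM in the other 3 regions. RTS0076369 stood at 8288 CPM in the CD68+ segment of air region 8, against 5357 to 5537 CPM in the other 3. Region 5 was also the highest of its group for RTS0076370 (34573 CPM) and air region 8 for RTS0076370 (46544 CPM), without being as far from the rest.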

How the results depend on the processing

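In the comparison of segments in the ozone sections, all 5 identifiers also passed with the region as a replicate block, which keeps both segments of a region paired and takes regions of 1 animal as replicates (log2 fold changes of 0.67, 0.69, 0.44, 0.58 and 0.41 for RTS0076368, RTS0076369, RTS0076370, RTS0076371 and RTS0076763). The median over all tested identifiers was -0.23 in that fit, against 0.00 in the main fit, so its log2 fold changes lie on a shifted scale. DESeq2 called 3 of the 5, with 0.76 for RTS0076371 and 0.69 for RTS0076763 not passing. Without segments under 50000 counts 0 of the 5 passed, with 0.73, 0.88, 0.32, 0.71 and 0.44 in the same order. Leaving out 1 section or 1 region gave 0 to 5 calls and log2 fold changes of 0.85 to 1.02, 0.91 to 1.07, 0.67 to 0.86, 0.65 to 0.84 and 0.57 to 0.74 in the same order, with RTS0076763 also not passing without region 6 of the young mutant section. For injury in CD45- segments, where 0 of the 5 passed, leaving out 1 section or region gave 0 to 3 calls and log2 fold changes of -0.47 to 0.15, -0.33 to 0.21, -0.39 to 0.06, 0.43 to 0.78 and -0.43 to 0.03. The turns above 0 came without the old mutant section for the first 3 (0.15, 0.21 and 0.057) and without the young mutant section for RTS0076763 (0.027), and RTS0076371 passed without region 2 of the young mutant, region 7 of the old mutant or region 3 of the wild type ozone section. For injury in CD68+ segments 3 of the 5 were called, where 0.252% of 3176 identifiers were called lower. These were RTS0076369, RTS0076370 and RTS0076763, which had been picked on this contrast, so the calls are a description and no test. The number called was 0 with DESeq2, 0 with a filter of 50 CPM and 1 without segments under 50000 counts. It was 0 to 4 when 1 section or region was left out. For ozone against air in CD68+ segments 2 of the 5 were counted, 1 with total counts, 0 with factors of all 48 segments, and 1 to 4 when 1 region was left out. The ratio within regions was lower in injured than in peri-injured regions of all 3 sections for 4 of the 5, and for 18.5% of the 356 abundant identifiers. It held for 1 of the 5 with upper quartile factors and for 1 with counts per area. Nothing is read from the part of RTS0076369, RTS0076370 and RTS0076763, picked on the CD68+ level in injured regions. Over all identifiers, the segment comparison had 252 higher and 121 lower calls, 71 and 12 with DESeq2, 119 and 36 without segments under 50000 counts, 208 and 665 with regions as libraries (205 and 616 with the region block) and 24 and 2 without the wild type section. Injury in CD45- segments had 34 and 24, 15 and 5 with upper quartile factors, 11 and 5 with total counts, 1 and 0 with DESeq2, 4 and 0 with a filter of 50 CPM, 20 and 7 with regions as libraries and 105 and 59 without the wild type section. The cause of these changes was not tested. Leaving out single regions, the factors of all 48 segments and the count ratio of RTS0076370 to RTS0076369 were chosen after seeing the data. The 500 other values of members in comparisons of 2 sections moved by less than the SD between regions. Depth limits RTS0076371 and RTS0076763 most, with lowest counts of 16 and 9 in a CD68+ segment.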
